A study of Homo sapiens with 6 samples.

Results

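The lysosomal genes described here are 44 genes chosen by name for what they encode, with earlier results of these data known. They are 3 transcription factors of the MiT/TFE family, 4 lysosomal membrane proteins, 22 hydrolases (counting PSAP, a precursor of their helper proteins), and 15 genes of the vacuolar proton pump (V-ATPase). They were taken from a table of 61541 genes by matching symbols to Ensembl IDs. All 44 had a row, and 43 of them were among the 14766 genes with a mean of at least 1 CPM (counts scaled to library size) over the 6 libraries. The exception was NEU1, the lysosomal sialidase, with 0, 3 and 0 counts under the control hairpin and 0, 1 and 0 under the RNF26 hairpin. Since the aligner and counter were not given, these counts need not reflect the transcript level of NEU1, and this was not tested.

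RNA sequencing compared cells labelled A498, a line derived from a human clear cell renal carcinoma, under a control shRNA (3 libraries) and under an shRNA against RNF26 (3 libraries). Both groups were grown in RPMI-1640 with serum, and the labels give the same wording for delivery of the hairpin in both. They do not say how many hairpins were used. Nothing in them tells whether replicates came from different cultures, and the p-values then reflect only how these libraries vary, which may be technical. RNF26 itself fell from 1972 ± 49.7 to 68.7 ± 0.482 CPM (mean ± SD, n = 3 per group), or 3.48% of the control level.

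The libraries held 16682871 to 18021718 counts. For 12 of 14 markers of renal tissue and clear cell carcinoma the mean was below 1 CPM, among them CA9 and PAX2. The others were PAX8, a kidney lineage factor, at 2.90 ± 0.357 and 2.12 ± 0.269 CPM (not passing the test), and EGLN3, a prolyl hydroxylase of the hypoxia response, which rose 1.69-fold from 8.82 ± 1.29 CPM (edgeR adjusted p = 2.54e-05). All 14 summed to 12.7 to 16.3 CPM under the control hairpin and 19.6 to 21.6 CPM under the RNF26 hairpin, most of it from EGLN3. All 6 squamous epithelial markers were present, with a summed level of 1580 to 1690 CPM under the control hairpin and 1260 to 1330 CPM under the RNF26 hairpin, led by KRT5 and KRT6A. They did not move together: SFN (log2 fold change -0.96), KRT6A (-0.73) and DSG3 (-0.31) fell, TP63 rose (0.17), and KRT5 (0.10) and KRT14 (-0.38) did not pass. Fibroblast markers were below 1 CPM for 4 of 5, with COL1A1 as the exception. Most defining markers of the labelled renal line were thus below 1 CPM, and the part of these marker differences in the lysosomal values was not tested. In bulk RNA, fewer cells of a type and less RNA per cell cannot be told apart.

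Lysosomes are acidic organelles that break down protein, glycan and lipid delivered by endocytosis and autophagy. The V-ATPase acidifies them, with a membrane sector (V0) that carries protons and a cytosolic sector (V1) that hydrolyses ATP. TFEB, TFE3 and MITF bind a palindromic E-box, the CLEAR element, in the promoters of many lysosomal genes, and they are held in the cytosol when mTORC1 on the lysosomal surface phosphorylates them. RNF26, an E3 ubiquitin ligase of the endoplasmic reticulum membrane, is known to help hold endosomes and lysosomes near the nucleus.

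MiT/TFE factors are known to bind the CLEAR letters, so the promoters that hold these letters are shown first. RefSeq promoter sequences (GRCh38.p14, 250 bases before to 50 bases after a start site) were matched for 31 of the 44 genes, with 46 promoters in all because some genes have several start sites. The 10-letter palindrome GTCACGTGAC was found in 3 of these 46 promoters and in 0.353% of all 35116 promoters. The 8-letter core TCACGTGA, which every copy of the longer form contains, was in 6 of the 46 and in 0.980% of all promoters. The 6-letter E-box CACGTG, contained in both, was in 11 of the 46 and in 7.26% of all. Each motif reads the same on both strands. A match is a description of letters, not of binding. In the following windows, read 5′ to 3′ on the strand of the gene and ending before the start site, capitals mark the longest of the first 2 motifs found.
GAA: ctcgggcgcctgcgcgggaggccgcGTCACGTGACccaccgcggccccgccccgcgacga
ATP6V1G1: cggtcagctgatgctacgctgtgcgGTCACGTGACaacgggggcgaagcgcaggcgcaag
MCOLN1: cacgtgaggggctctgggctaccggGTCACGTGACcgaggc
LAMP1: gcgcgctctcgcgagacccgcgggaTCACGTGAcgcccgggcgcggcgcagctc
CTSA: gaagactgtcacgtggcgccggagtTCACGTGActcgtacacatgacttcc
ATP6V0D1: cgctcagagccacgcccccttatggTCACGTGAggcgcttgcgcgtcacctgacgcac

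The GAA window is chr17:80101478-80101537 on the plus strand, with the motif starting 78 bases before the start site and a second copy in the same promoter. The ATP6V1G1 window is chr9:114587684-114587743 (plus strand, 60 bases before the start). The MCOLN1 window is chr19:7522583-7522623 (plus strand, 16 bases before), and the LAMP1 window is chr13:113297185-113297238 (plus strand, 29 bases before, also with a second copy of its motif in the promoter). The CTSA window is chr20:45891284-45891334 (plus strand, 26 bases before), and the ATP6V0D1 window is chr16:67481185-67481242 (minus strand, 60 bases before). The 6 genes with these letters did not move together. GAA rose (log2 fold change 0.44), ATP6V1G1 fell (-0.35), and MCOLN1 (0.16), ATP6V0D1 (0.14), CTSA (0.02) and LAMP1 (-0.02) did not pass the test.

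Of the 43 tested lysosomal genes, 9 rose and 11 fell under the RNF26 hairpin, all by less than 2-fold, and 23 did not pass (edgeR quasi-likelihood test, two-sided, Benjamini-Hochberg adjusted p below 0.05 over all 14766 genes). That is 46.5% called, against 41.4% of all tested genes. The share that rose was 20.9% against 18.9% of all genes, and the share that fell 25.6% against 22.6%. The list as a whole therefore had calls near the background in both directions. Its median log2 fold change was -0.02, beside 0.01 for all tested genes. Changes of at least 1.5-fold were called for 4 members, or 9.30% against 8.85% of all tested genes: CTSD rose, and CTSL, MITF and ATP6V0C fell. The groups did not overlap for 28 members, or 65.1% against 50.1% of all tested genes. All tested genes included 6830 with a mean below 389 counts a library, and the tested members 3. The members and the background thus differ in count level, and its part in the shares given here and below was not tested. With libraries scaled by total counts instead of trimmed means (TMM), the split turned from 9 higher and 11 lower to 18 higher and 9 lower, as it did for all genes (2785 higher and 3332 lower, against 4449 and 2269, the latter being 30.1% and 15.4% of those tested). Upper quartile scaling gave 15 higher and 11 lower.

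**Figure D1:**
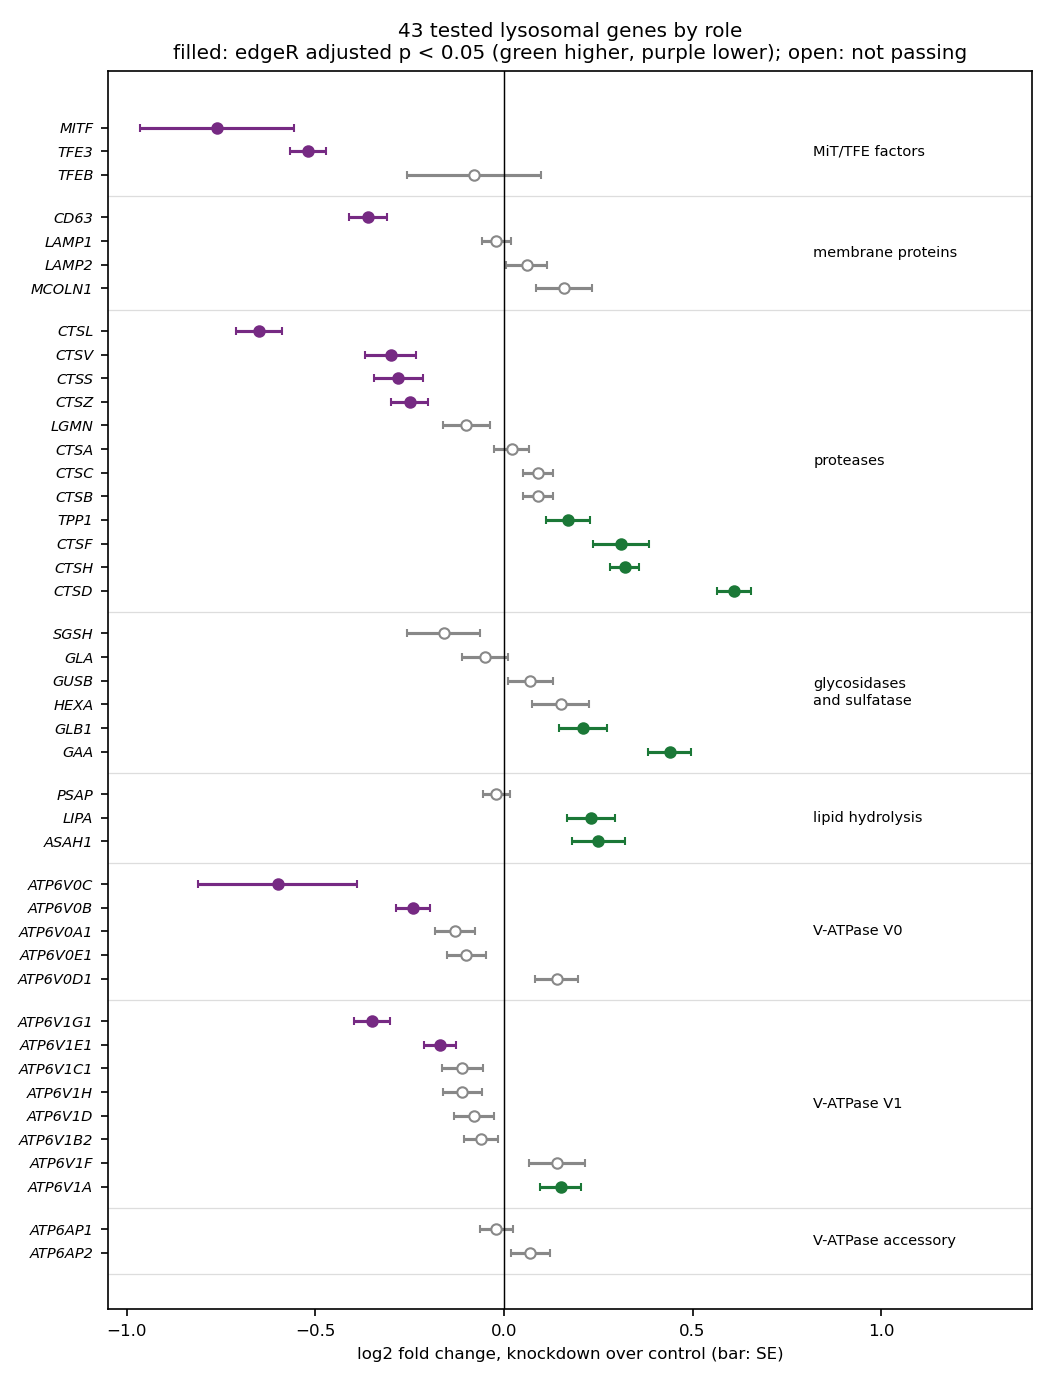
Log2 fold change of each of the 43 tested genes (x axis, knockdown over control, bars are the SE), ordered by role. Filled points passed the edgeR test (green higher, purple lower) and open points did not; hydrolases lie on both sides of 0, from -0.65 for CTSL to 0.61 for CTSD, while the V-ATPase genes lie between -0.60 and 0.15.

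The transcription factors were lower or did not pass. TFE3 had 144, 133 and 141 CPM in the control libraries (TMM-scaled CPM here and below) and 93.3, 98.9 and 99.6 CPM under the RNF26 hairpin. Every knockdown library lay below every control library, and TFE3 fell 1.43-fold (-0.52 ± 0.047 SE as log2 fold change, adjusted p = 5.25e-08 by edgeR). MITF had 4.71, 7.98 and 6.88 CPM against 4.39, 2.88 and 4.25 CPM, again without overlap, although the lowest control library lay close to the highest knockdown library. MITF fell 1.70-fold (-0.76 ± 0.204 SE as log2 fold change, adjusted p = 0.00544 by edgeR), a change measured on 53 to 131 counts a library. The 4 melanocyte markers, from the lineage in which MITF is best known, were each below 1 CPM and summed to 1.09 to 1.28 CPM in the control and 1.03 to 1.63 CPM under the RNF26 hairpin. TFEB had 7.35, 4.87 and 5.85 CPM against 5.40, 7.01 and 4.71 CPM, with overlapping groups (-0.08 ± 0.178 SE as log2 fold change, adjusted p = 0.762 by edgeR). Per kilobase of exon, TFE3 stood at 32.5 CPM in the control group, TFEB at 1.07 and MITF at 0.908, so TFE3 was the most abundant of the 3 transcripts. Transcript levels say nothing of where these proteins are or whether they are phosphorylated.

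**Figure D2:**
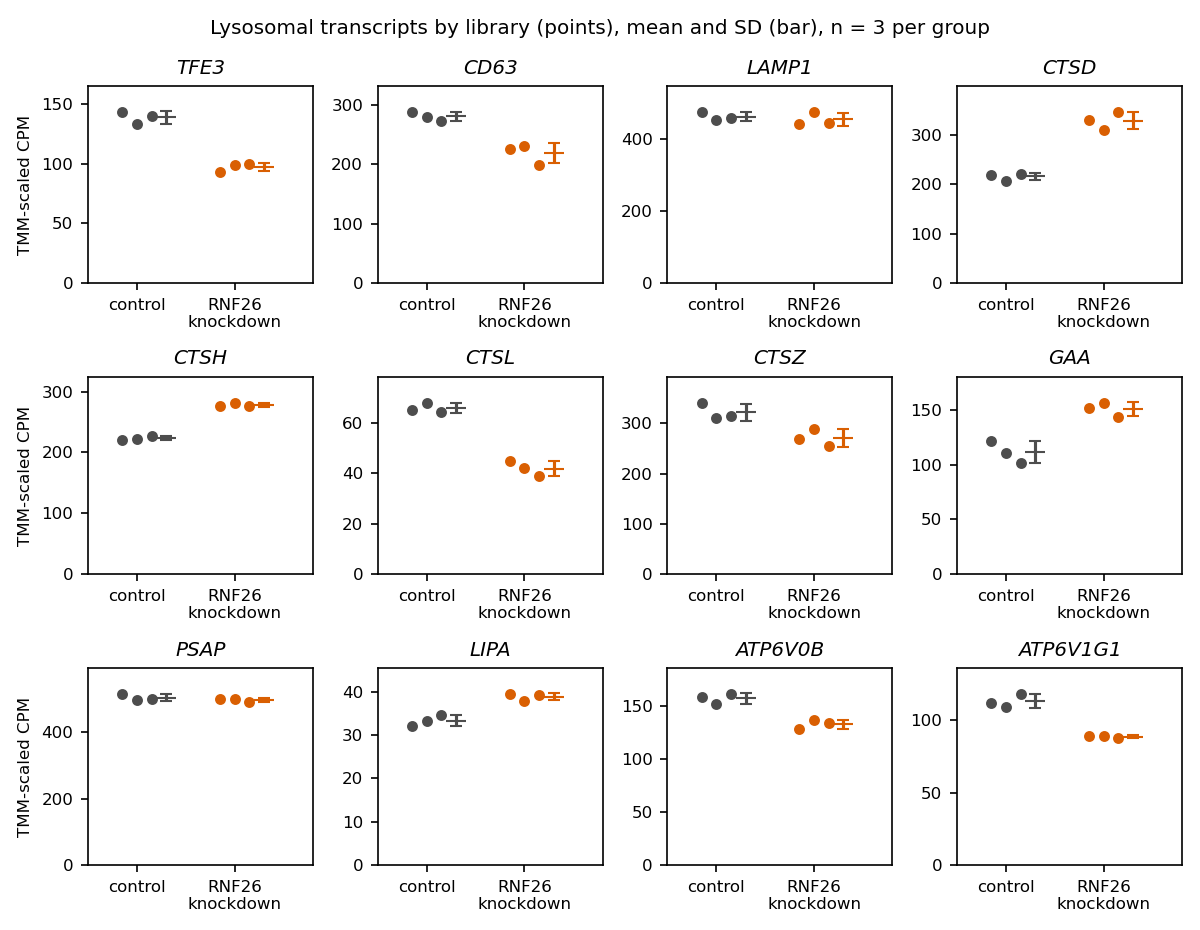
TMM-scaled CPM of 12 of the genes in each library (points; y axis from 0), with the mean and SD at the right of each group of 3. TFE3, CD63, CTSL, CTSZ, ATP6V0B and ATP6V1G1 are lower in every knockdown library than in any control library, CTSD, CTSH, GAA and LIPA are higher, and LAMP1 and PSAP overlap.

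Among the membrane proteins, LAMP1 and LAMP2, the heavily glycosylated proteins that line the lysosomal membrane, did not pass the test. LAMP1 had 475, 453 and 457 CPM under the control hairpin and 441, 475 and 445 CPM under the RNF26 hairpin (-0.02 ± 0.039 SE as log2 fold change, adjusted p = 0.647 by edgeR). LAMP2 had a log2 fold change of 0.06 (SE 0.054), and both overlapped between groups. CD63, a tetraspanin of late endosomes, lysosomes and exosomes, differed from them. It had 288, 280 and 273 CPM under the control hairpin and 225, 231 and 199 CPM under the RNF26 hairpin, a fall of 1.28-fold (-0.36 ± 0.050 SE as log2 fold change, adjusted p = 1.09e-05 by edgeR) without overlap. MCOLN1, the lysosomal calcium channel, had 27.7, 29.8 and 30.6 CPM against 32.8, 35.2 and 30.5 CPM (0.16 ± 0.074 SE as log2 fold change, adjusted p = 0.0906 by edgeR). MCOLN1 passed under 3 of the 16 alternatives, with total-count scaling (0.25), with upper quartile scaling (0.21) and without knockdown replicate 3 (0.21, edgeR adjusted p = 0.0482). The 4 membrane genes thus gave 0 higher and 1 lower with edgeR, DESeq2 and limma (1 and 1 at an unadjusted p below 0.05). Of all tested genes, 18.9% rose and 22.6% fell with edgeR, and 1 lower of 4 lay close to the latter share. With total-count scaling 2 membrane genes were higher (LAMP2 and MCOLN1) and 1 lower, against 30.1% and 15.4% of all tested genes.

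The 12 proteases split evenly, with 4 higher, 4 lower and 4 not passing, or 33.3% in each direction against 18.9% higher and 22.6% lower of all tested genes. CTSD, the main aspartic protease of lysosomes, changed most among those that rose. Its level was 219, 207 and 221 CPM under the control hairpin and 329, 310 and 347 CPM under the RNF26 hairpin. All 3 knockdown libraries were far above the controls, a rise of 1.52-fold (0.61 ± 0.045 SE as log2 fold change, adjusted p = 2.54e-09 by edgeR). CTSD shares 45.0% of its 50-base words with transcripts of overlapping genes in GENCODE 29, mainly AC068580.4 on the same strand, and its count is uncertain where reads were shared. CTSH, a cysteine cathepsin that also trims N termini, had 221, 222 and 227 CPM against 276, 282 and 276 CPM. The replicates of CTSH were tight, and it rose 1.24-fold (0.32 ± 0.038 SE as log2 fold change, adjusted p = 2.21e-06 by edgeR). CTSF, another cysteine cathepsin, had 26.6, 24.3 and 26.2 CPM against 33.8, 30.5 and 31.3 CPM and rose 1.24-fold as well (adjusted p = 0.00237 by edgeR). TPP1, a tripeptidyl peptidase whose loss causes a neuronal ceroid lipofuscinosis, had 52.2, 57.7 and 54.0 CPM against 61.8, 59.0 and 63.8 CPM. Its rise of 1.13-fold (0.17 as log2 fold change, adjusted p = 0.0228 by edgeR) was called on all 6 libraries, but not without control replicate 1 (0.14) or 3 (0.16), nor without knockdown replicate 1 (0.17) or 3 (0.15).

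The 4 proteases that fell were all cysteine cathepsins of the papain family. So were CTSF and CTSH, which rose, and CTSB and CTSC, which did not pass. CTSL, an endopeptidase, had 65.2, 68.0 and 64.3 CPM under the control hairpin and 44.8, 42.0 and 38.7 CPM under the RNF26 hairpin. It fell 1.57-fold (-0.65 ± 0.061 SE as log2 fold change, adjusted p = 6.87e-08 by edgeR), with a wide gap between the groups. CTSV, the closest human relative of CTSL, had 32.7, 32.8 and 34.4 CPM against 26.5, 27.1 and 27.3 CPM, a fall of 1.23-fold (-0.30 ± 0.068 SE as log2 fold change, adjusted p = 0.00145 by edgeR). CTSS, best known from antigen-presenting cells, had 45.0, 49.9 and 52.5 CPM against 40.4, 40.3 and 40.5 CPM. The fall of CTSS was 1.22-fold (-0.28 ± 0.064 SE as log2 fold change, adjusted p = 0.00163 by edgeR). Of 7 macrophage markers 6 had a mean below 1 CPM, CD163 and TYROBP had no count in any library, and the list summed to 2.24 to 3.35 CPM in the control and 2.36 to 2.68 CPM under the RNF26 hairpin. CTSZ, a carboxypeptidase, had 341, 311 and 314 CPM against 269, 290 and 254 CPM, a fall of 1.19-fold (-0.25 ± 0.049 SE as log2 fold change, adjusted p = 0.000414 by edgeR). The groups did not overlap for any of these 4 genes.

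The other 4 proteases did not pass. CTSB, a cysteine cathepsin with both endopeptidase and carboxypeptidase activity, had 258, 254 and 264 CPM under the control hairpin and 267, 280 and 278 CPM under the RNF26 hairpin (0.09 ± 0.039 SE as log2 fold change, adjusted p = 0.0853 by edgeR). CTSC, which activates the serine proteases of granulocytes, had 571 to 632 CPM against 632 to 644 CPM (0.09 as log2 fold change, adjusted p = 0.0613 by edgeR), and passed under 5 of the 16 alternatives (0.09 to 0.18), among them without control replicate 3 (0.13, edgeR adjusted p = 0.00722). CTSA, the carboxypeptidase that protects the lysosomal galactosidase and sialidase, had a log2 fold change of 0.02 (SE 0.046). LGMN, the asparaginyl endopeptidase that processes other cathepsins, had -0.10 (SE 0.062). CTSB and CTSC became calls higher with total-count scaling (0.18 each), which made the protease split 6 higher and 4 lower.

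Of the 9 tested hydrolases that act on glycans and lipids, 4 rose, 0 fell and 5 did not pass in edgeR. The share that rose was 44.4% against 18.9% of all tested genes, and 22.6% of all tested genes fell. DESeq2 and limma gave the same counts, as did an unadjusted p below 0.05 (4 higher and 0 lower). GAA, the acid glucosidase that clears lysosomal glycogen and is lost in Pompe disease, had 122, 111 and 101 CPM under the control hairpin and 152, 157 and 144 CPM under the RNF26 hairpin. GAA rose 1.35-fold without overlap (0.44 ± 0.057 SE as log2 fold change, adjusted p = 5.75e-06 by edgeR). GLB1, the acid galactosidase used as a senescence stain, had 45.2, 48.5 and 44.3 CPM against 53.2, 56.8 and 49.8 CPM. Its rise of 1.16-fold (0.21 ± 0.063 SE as log2 fold change, adjusted p = 0.0110 by edgeR) was not called without knockdown replicate 2 (0.16, edgeR adjusted p = 0.0723). LIPA, the acid lipase that frees cholesterol from its esters, had 32.1, 33.2 and 34.6 CPM against 39.6, 37.9 and 39.3 CPM. Every knockdown library of LIPA was above every control library, a rise of 1.17-fold (0.23 ± 0.064 SE as log2 fold change, adjusted p = 0.00836 by edgeR). ASAH1, the acid ceramidase, had 38.7, 34.1 and 37.9 CPM against 41.1, 47.3 and 43.0 CPM and rose 1.19-fold (0.25 as log2 fold change, adjusted p = 0.00786 by edgeR). The call for ASAH1 was lost without control replicate 2 or knockdown replicate 2 (0.19 in both cases).

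The members of this group that did not pass included the one with the highest level per kilobase. PSAP, the precursor of the saposins that present sphingolipids to their hydrolases, had 517, 497 and 500 CPM under the control hairpin and 502, 503 and 492 CPM under the RNF26 hairpin (-0.02 ± 0.035 SE as log2 fold change, adjusted p = 0.746 by edgeR). The groups overlapped, and the SE of PSAP was the smallest of all 43 genes. HEXA, a subunit of hexosaminidase A, had a log2 fold change of 0.15 (SE 0.076), GUSB, the glucuronidase, 0.07 (SE 0.060), GLA, the galactosidase lost in Fabry disease, -0.05 (SE 0.060), and SGSH, the heparan sulfamidase, -0.16 (SE 0.097). HEXA and GUSB were called higher with total-count scaling (0.24 and 0.16), which gave 6 higher and 0 lower.

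The 15 V-ATPase genes gave 1 higher, 4 lower and 10 not passing, with a median log2 fold change of -0.10 and 11 of 15 values below 0. The share that rose was 6.67% against 18.9% of all tested genes, and the share that fell 26.7% against 22.6%. With total-count scaling the split was 4 higher and 2 lower and the median -0.01. Upper quartile scaling gave 3 higher and 4 lower and a median of -0.05. The number passing in each direction thus depended on the scaling, while the median stayed below 0. With total-count scaling ATP6V1B2 (0.04), ATP6V1D (0.01) and ATP6AP1 (0.07) changed sign. Of the V0 sector, ATP6V0B, a proton-carrying proteolipid of the rotor ring, had 158, 152 and 162 CPM under the control hairpin and 129, 137 and 134 CPM under the RNF26 hairpin. It fell 1.18-fold without overlap (-0.24 ± 0.045 SE as log2 fold change, adjusted p = 0.000252 by edgeR). ATP6V0C, the main proteolipid of the ring, had 56, 69 and 81 counts under the control hairpin and 45, 57 and 43 under the RNF26 hairpin (-0.60 ± 0.210 SE as log2 fold change, adjusted p = 0.0286 by edgeR). This is a low level beside the other ring gene, 2.75 CPM per kilobase for ATP6V0C against 44.5 for ATP6V0B in the control group. ATP6V0C shares 65.7% of its 50-base words with read-through genes on the same strand, and its value is uncertain for that reason. Its call was lost with total-count scaling (-0.51), with DESeq2 (-0.60), and without control replicate 2 (-0.58) or 3 (-0.45) or knockdown replicate 1 (-0.55) or 3 (-0.54).

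Of the V1 sector, ATP6V1G1, a subunit of the peripheral stalks, changed most. It had 112, 109 and 118 CPM under the control hairpin and 89.5, 89.0 and 87.7 CPM under the RNF26 hairpin, a fall of 1.27-fold without overlap (-0.35 ± 0.047 SE as log2 fold change, adjusted p = 8.37e-06 by edgeR). ATP6V1E1, its partner in the stalks, had 159, 161 and 158 CPM against 140, 138 and 148 CPM. The fall of ATP6V1E1 was 1.12-fold (-0.17 ± 0.043 SE as log2 fold change, adjusted p = 0.00442 by edgeR), and total-count scaling ended that call (-0.08, edgeR adjusted p = 0.157). ATP6V1A, the catalytic subunit that binds ATP, went the other way, with 62.3, 61.5 and 66.1 CPM against 70.6, 67.4 and 72.2 CPM (0.15 ± 0.054 SE as log2 fold change, adjusted p = 0.0351 by edgeR). That call was lost with DESeq2 and without a filter on low counts (0.15 each), without control replicate 1 or 2 (0.13 each), and without knockdown replicate 1 (0.14) or 3 (0.13). ATP6V1B2, the non-catalytic partner of ATP6V1A in the ATPase head, had 98.8, 98.8 and 96.9 CPM against 93.3, 96.1 and 93.9 CPM (-0.06 ± 0.045 SE as log2 fold change), and did not pass.

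The remaining V-ATPase genes had log2 fold changes between -0.13 and 0.14. ATP6V0A1, the large membrane subunit, had -0.13, and ATP6V0D1, which couples the central shaft to the ring, had 0.14. Each had an edgeR adjusted p of 0.0535. ATP6V0D1 passed as higher under 7 of the 16 alternatives (0.14 to 0.23), among them total-count and upper quartile scaling and leaving out control replicate 1 (0.16, edgeR adjusted p = 0.0458) or knockdown replicate 3 (0.18, edgeR adjusted p = 0.0279). ATP6V0E1 (-0.10), ATP6V1C1 (-0.11), ATP6V1D (-0.08), ATP6V1F (0.14) and ATP6V1H (-0.11) did not pass either. Without control replicate 1, ATP6V1C1 passed as lower (-0.16, edgeR adjusted p = 0.0252) and ATP6V1F as higher (0.21, edgeR adjusted p = 0.0294). ATP6V1F passed under 4 alternatives in all (0.14 to 0.23), among them total-count and upper quartile scaling. ATP6V1D, a subunit of the central shaft, had 8826 counts over the 6 libraries and overlaps EIF2S1, a translation factor gene with 19490 counts, on the opposite strand. The accessory subunits ATP6AP1 (-0.02) and ATP6AP2 (0.07), the latter also known as the prorenin receptor, overlapped between groups, and ATP6AP2 passed with total-count scaling (0.16).

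**Figure D3:**
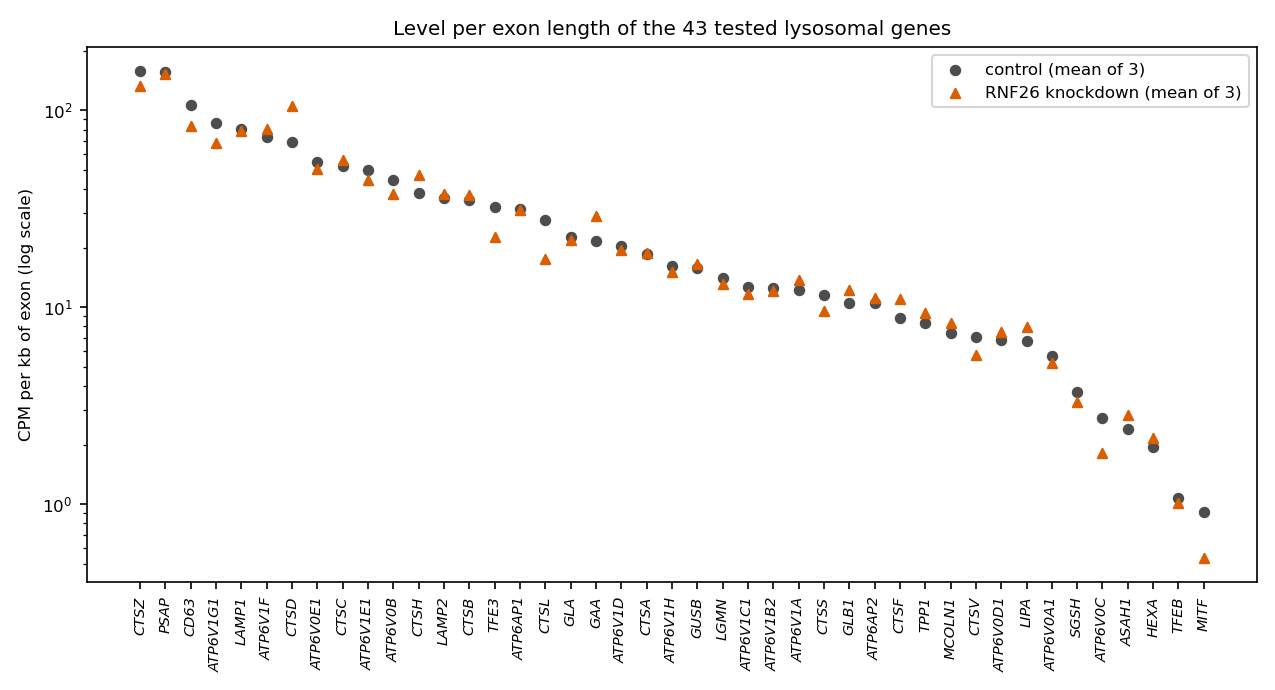
Mean level of the 43 tested genes in CPM per kilobase of exon (log y axis; exon length is the union over GENCODE 29 transcripts), ordered by the control group (circles) with the knockdown group as triangles. CTSZ (158) and PSAP (156) lead in the control group and TFEB (1.07) and MITF (0.908) come last; CTSD moves from 69.0 to 105.

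Per kilobase of exon, the levels of the lysosomal genes in the control group ran over more than 100-fold. CTSZ (158 CPM per kilobase), PSAP (156) and CD63 (106) were the highest, followed by ATP6V1G1 (86.7), LAMP1 (80.4), ATP6V1F (73.3) and CTSD (69.0). In the knockdown group PSAP (154) came before CTSZ (133), and CTSD (105) moved past CD63 (82.9), LAMP1 (79.0) and ATP6V1G1 (68.0). CTSZ and PSAP in the control group lay within the SD of CTSZ of each other, so their order there is not resolved. Exon lengths include rarely used exons, which lowers the values of genes with many long transcripts, such as ASAH1 and HEXA.

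Other lysosomal genes, from lists drawn up by function with earlier results of these data known, were examined beside these. Of 32 tested further hydrolases and activators, 10 rose and 2 fell, or 31.2% and 6.25% against 18.9% and 22.6% of all tested genes, with a median log2 fold change of 0.09. SCPEP1, a serine carboxypeptidase, rose from 102 ± 2.72 to 153 ± 4.10 CPM (0.58 ± 0.045 SE as log2 fold change), and IDUA, the iduronidase lost in Hurler syndrome, from 10.6 ± 0.291 to 15.2 ± 0.273 CPM (0.52 ± 0.096 SE). PLA2G15, the lysosomal phospholipase, fell from 19.2 ± 2.72 to 13.1 ± 0.485 CPM (-0.56 ± 0.104 SE). CTSK, a collagen-degrading cathepsin, rose by 0.50 on the log2 scale at about 5.10 CPM in the control group. The groups of CTSK overlapped, and its call was lost without control replicate 1 (0.47) or 2 (0.37) or knockdown replicate 1 (0.37).

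Of 29 tested further membrane proteins, 11 rose and 5 fell (13 and 3 with total-count scaling), or 37.9% and 17.2% against 18.9% and 22.6% of all tested genes, with a median of 0.05. SLC29A3, a nucleoside transporter, rose 1.60-fold, the potassium and proton channel TMEM175 1.57-fold and TMEM106B 1.47-fold, each from below 20 CPM. MFSD12, a cysteine importer, fell from 167 ± 9.15 to 124 ± 10.8 CPM (-0.43 ± 0.057 SE as log2 fold change). Of 15 tested further V-ATPase subunits and assembly factors, 5 rose and 0 fell in edgeR and DESeq2, and 6 rose and 0 fell in limma and at an unadjusted p below 0.05, with a median of 0.08. The 5 make 33.3%, against 18.9% of all tested genes. The 5 were ATP6V0E2, the paralogue of ATP6V0E1 (0.53 ± 0.081 SE), TCIRG1, the A3 isoform of the large V0 subunit (0.20 ± 0.056 SE), DMXL2 and WDR7 of the assembly complex (0.27 and 0.30), and NCOA7, a TLDc protein that binds the pump (0.54 ± 0.047 SE). WDR7 lost its call without control replicate 3 (0.28) or knockdown replicate 1 (0.22), and TCIRG1 without control replicate 3 (0.13).

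Genes that sort enzymes to lysosomes gave 9 higher and 2 lower of 21 tested (14 and 0 with total-count scaling), or 42.9% and 9.52% against 18.9% and 22.6% of all tested genes, with a median of 0.14. The adaptors GGA1 and GGA3, which load mannose 6-phosphate receptors into carriers, each rose 1.25-fold, the receptor SORT1 1.21-fold and the adaptor subunit AP3S2 1.23-fold. The larger of the mannose 6-phosphate receptors, IGF2R, rose (0.14) and the smaller, M6PR, fell (-0.16). The call for M6PR was lost with total-count (-0.07) and upper quartile scaling (-0.11), and without control replicate 2 (-0.15) or knockdown replicate 1 (-0.15) or 3 (-0.14). Genes that position and tether lysosomes gave 3 higher and 7 lower of 22 (6 and 5 with total-count scaling), or 13.6% and 31.8% against the same background, with a median of 0.03. BLOC1S2, a subunit shared by BLOC-1 and BORC, fell 1.41-fold. SPAG9 and PIP4P1, which act in transport toward the cell centre, fell 1.30-fold and 1.28-fold. RAB7A, the GTPase of late endosomes, fell (-0.26), and VPS16, VPS39 and VPS41, subunits of the HOPS tethering complex, were the 3 that rose (0.33, 0.25 and 0.34).

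Regulators of the MiT/TFE factors gave 2 higher and 6 lower of 19 tested (4 and 6 with total-count scaling), or 10.5% and 31.6% against 18.9% and 22.6% of all tested genes, with a median of -0.05. RRAGC, a GTPase that brings TFEB and TFE3 to the lysosome, was among those that fell (-0.72). The others were YWHAZ, a 14-3-3 protein that binds phosphorylated TFEB (1.34-fold lower, from 1701 ± 52.2 to 1273 ± 56.4 CPM), LAMTOR3 of the lysosomal Ragulator complex (-0.37), and the calcineurin subunits PPP3CA (-0.33), PPP3CC (-0.57) and PPP3R1 (-0.32). Those that rose were ZKSCAN3, a repressor of lysosomal genes (1.53-fold, from 5.44 ± 1.03 CPM), and RRAGA, a GTPase that pairs with RRAGC (0.20, edgeR adjusted p = 0.00685). Cathepsin inhibitors gave 3 higher and 1 lower of 7 tested (3 and 0 with total-count scaling), from 14 listed. That is 42.9% and 14.3%, against 18.9% and 22.6% of all tested genes. CST3, the secreted inhibitor cystatin C, was at 178 ± 6.10 and 161 ± 4.82 CPM (log2 fold change -0.15), a call lost with total-count scaling (-0.06), with upper quartile scaling (-0.09) and without knockdown replicate 1 (-0.12). SERPINB3 and SERPINB13, serpins that inhibit cysteine cathepsins, rose 2.96-fold and 3.14-fold from 2.05 ± 0.591 and 1.04 ± 0.367 CPM. SERPINB3 has a near-identical relative, so its count is uncertain. SERPINB6 rose slightly (0.19), but did not pass once control replicate 2 or knockdown replicate 3 was left out (0.15 each).

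**Figure D4:**
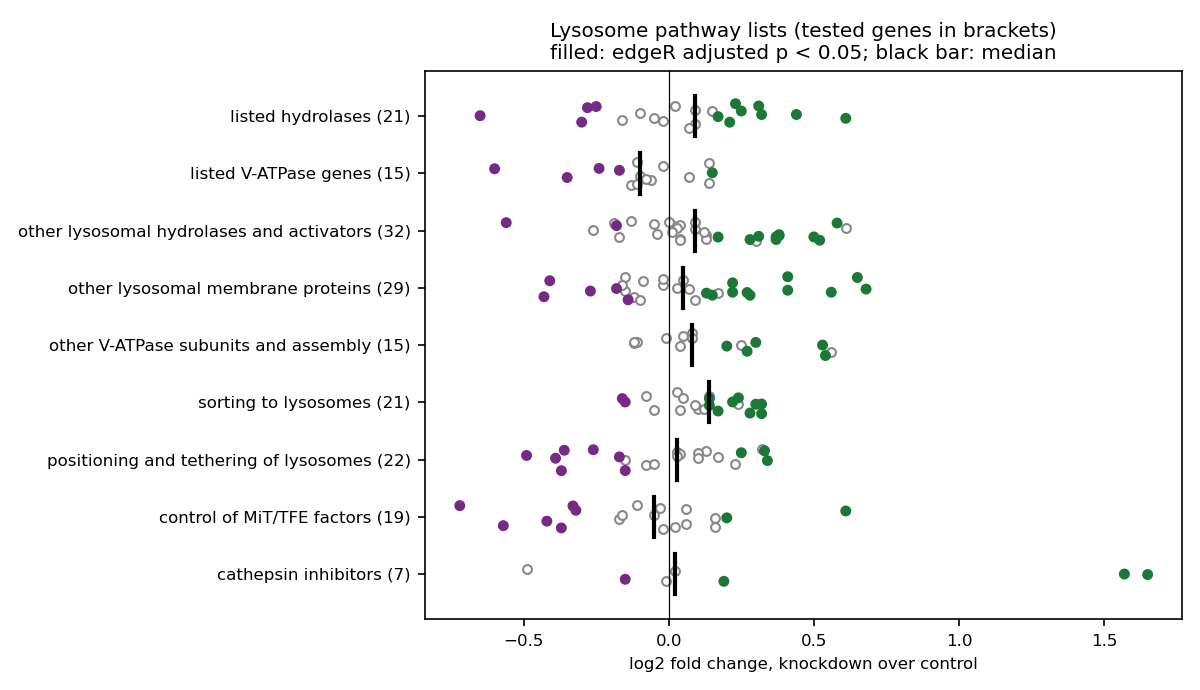
Log2 fold change (x axis, knockdown over control) of each tested gene in 9 lysosomal lists, filled where it passed the edgeR test (green higher, purple lower), with the list median as a black bar. Medians run from -0.10 for the listed V-ATPase genes to 0.14 for genes of sorting to lysosomes; points are spread vertically at random within a list.

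Scaling moved the medians of all of these lists and the sign of some small changes. Under TMM the median of all tested genes was 0.008 and that of the lysosomal genes -0.025, and under total-count scaling they were 0.099 and 0.066. The 14 called members that held under all 16 other settings were TFE3, MITF, CD63, CTSL, CTSS, CTSV, CTSZ, ATP6V0B and ATP6V1G1, which fell, and CTSD, CTSF, CTSH, GAA and LIPA, which rose. None of the 20 called members changed sign under any of those settings, of which the minimum of 5 CPM left ATP6V0C untested.

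**Figure D5:**
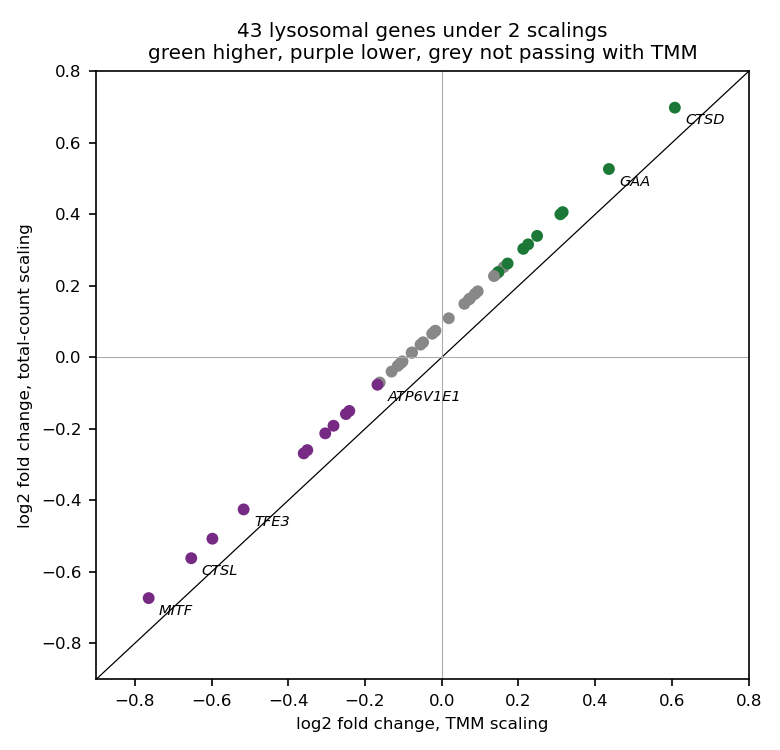
Log2 fold change of the 43 tested genes with TMM scaling (x axis) and with total-count scaling (y axis); the diagonal marks equal values. All points lie above the diagonal by a like amount, MITF and CTSL stay well below 0, CTSD and GAA well above 0, and ATP6V1E1 moves from -0.17 to -0.08.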

How the data were processed

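RNA-seq libraries (6, with 3 per group) were assigned to groups by sample title. The authors deposited raw gene counts: although the table is named for FPKM, its values are whole numbers with differing totals. The submitters' processing notes name build hg19. Aligner, counter, annotation and strand setting were not given in the sources used here, and overlapping genes cannot be separated with certainty. Rows without a gene (2, holding 0 counts) were left out, and 61369 of 61541 IDs had a symbol.

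Genes with a mean of at least 1 CPM (14766) were tested with edgeR 4.0.16 in R 4.3.3 (quasi-likelihood, TMM scaling, threshold 0.05). The SE was the size of the log2 fold change divided by the root of the F statistic. Libraries held 16682871 to 18021718 counts. The biological coefficient of variation was 0.0507, which counting error equals at 389 counts a library. Of the tested members 3 lay below that, and of all tested genes 6830. Scripts were tested on simulated data. Alternatives were other scalings, filters and variance models, limma 3.58.1 on log2(CPM + 1), DESeq2 1.42.0, the replicate number as a block, and leaving out each library. Exon lengths, overlaps and shared 50-base words came from GENCODE 29, without coordinates. Members and lists were chosen with earlier results of these data known. Values by library were given for called members, up to the 20 with the largest change, for TFEB and LAMP1, and for MCOLN1, CTSB, PSAP and ATP6V1B2, which were chosen after their values were seen; from other lists up to 4 called genes by largest change were named, and a few more were named after their values were seen.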

Additional observations from a re-analysis of the deposited data

How the results depend on the processing

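Of the 20 called lysosomal genes, 14 kept direction and call under all 16 alternatives, and 6 lost the call under at least 1 (TPP1, GLB1, ASAH1, ATP6V0C, ATP6V1A and ATP6V1E1). The cause was not tested. With total-count scaling 18 members were higher, V-ATPase genes gave 4 higher and 2 lower, all genes gave 4449 higher, and the members' median was 0.07. Upper quartile scaling gave 15 members higher, 3 V-ATPase genes higher and a median of 0.03. The count of V-ATPase genes higher (1) was 0 with DESeq2 and without a filter on low counts, and 2 with the robust fit and with a minimum of 5 CPM. Leaving out 1 library gave 7 to 9 members higher, 10 to 12 lower, 0 to 2 V-ATPase genes higher, 3 to 5 lower, and medians of -0.04 to -0.01. All genes gave 2162 to 2587 higher and 2797 to 3239 lower.

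Genes near 0 changed sign, each without passing. With total-count scaling the values were 0.01 for TFEB and ATP6V1D, 0.04 for GLA and ATP6V1B2, and 0.07 for LAMP1, PSAP and ATP6AP1. With upper quartile scaling they were 0.03 for LAMP1 and ATP6AP1, 0.04 for PSAP and 0.00 for GLA. Leaving out 1 library gave -0.25 to 0.09 for TFEB (above 0 without control replicate 1, 0.09, or knockdown replicate 3, 0.04), -0.04 to 0.01 for ATP6AP1 (0.01 without knockdown replicate 1) and -0.00 to 0.05 for CTSA (just below 0 without control replicate 2). Of 28 named genes from the other lists, 24 held under every alternative that tested them.

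The replicate block gave 12 members higher (CTSC, ATP6V0D1 and ATP6V1F were added), 11 lower and 3 V-ATPase genes higher. Same-numbered libraries did not deviate together (correlations 0.011, -0.0272 and 0.0934), so the numbers do not show a pairing. At this depth MITF, TFEB and ATP6V0C, with 43 to 131 counts a library, have the widest errors.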
